A study of Mus musculus with 9 samples.

Results

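Gluconeogenesis builds glucose from pyruvate, lactate, glycerol and amino acids, and 6 genes of its 4 bypass enzymes were followed here in mouse pancreatic islets: Pcx, Pck1, Pck2, Fbp1, Fbp2 and G6pc3. They are 6 of the 56941 gene identifiers in the count table, and were chosen by name, after Fbp2 had been seen among the largest increases on the ketogenic diet. Values for the ketogenic against the low fat diet are therefore a description of the 6 genes, with no test. All 6 passed the filter on low counts, which left 18548 genes for testing.

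The islets came from male wild-type C57BL/6J mice that entered the study at 15 weeks of age and ate their diet for 9 months. The low fat diet (LFD) had 10% fat and 3 samples, the high fat diet (HFD) had 60% fat and 2 samples, and the ketogenic diet (KD) had 89.9% fat and 4 samples. The genotype was given as WT for every sample, and nothing in the labels says whether a sample is 1 mouse or several pooled. The p-values therefore measure only the spread between these samples, which may be partly technical. The comparisons ask how the transcripts of islets differ between the 3 diets.

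In liver and kidney the pathway works in one direction, from pyruvate to free glucose. Pyruvate carboxylase (Pcx) makes oxaloacetate, phosphoenolpyruvate carboxykinase (Pck1 in the cytosol, Pck2 in mitochondria) turns it into phosphoenolpyruvate, fructose bisphosphatase (Fbp1 and Fbp2) removes a phosphate from fructose bisphosphate, and glucose phosphatase (G6pc, G6pc2 and G6pc3) releases glucose. Islet beta cells export no glucose made this way. They use Pcx and Pck2 to feed and drain the citric acid cycle while they sense glucose, and G6pc2 is their own glucose phosphatase. Fbp1 is the form of liver and kidney, and Fbp2 is known as the form of skeletal muscle.

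Fbp2 and Fbp1 lie next to each other on the same strand of mouse chromosome 13, with 0 annotated protein-coding genes between them. The 250 bases before each start are shown because the neighbours differed in how their transcripts varied across the diets, together with those of Pck1, the classic hormone-controlled gene of the pathway. The sequences are from RefSeq on GRCm38.p6 and read 5′ to 3′ on the strand of the gene. They are chr13:62858401-62858650 for Fbp2 and chr13:62888283-62888532 for Fbp1, both on the minus strand, and chr2:173152823-173153072 for Pck1, on the plus strand. Capitals mark motif matches, which are TGANTCA (the AP-1 element) overlapping CACGTG (the E-box) in Fbp2, and TTACGTCA (a variant cAMP response element) in Pck1.
Fbp2: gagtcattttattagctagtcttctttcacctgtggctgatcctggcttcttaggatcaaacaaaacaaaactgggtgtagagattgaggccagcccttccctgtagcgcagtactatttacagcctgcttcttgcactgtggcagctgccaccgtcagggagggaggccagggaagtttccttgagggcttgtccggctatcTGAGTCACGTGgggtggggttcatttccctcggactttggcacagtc
Fbp1: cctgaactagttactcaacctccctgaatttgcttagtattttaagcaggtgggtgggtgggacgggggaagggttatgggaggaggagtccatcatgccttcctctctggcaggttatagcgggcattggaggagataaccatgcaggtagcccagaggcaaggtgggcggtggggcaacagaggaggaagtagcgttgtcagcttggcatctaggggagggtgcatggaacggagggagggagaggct
Pck1: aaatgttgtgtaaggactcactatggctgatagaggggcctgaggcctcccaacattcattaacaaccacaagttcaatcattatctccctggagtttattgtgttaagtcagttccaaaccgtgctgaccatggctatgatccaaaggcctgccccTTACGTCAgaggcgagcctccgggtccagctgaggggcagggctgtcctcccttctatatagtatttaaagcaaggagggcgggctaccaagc

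The motifs were searched on both strands, in the 250 bases before the start only. In Fbp2 the TGANTCA match began 47 bases and the CACGTG match 42 bases before the start, and the 2 matches shared bases. Fbp1 had neither. Of all 32851 RefSeq promoter windows of the same length, 6.75% held TGANTCA and 6.02% held CACGTG. The latter also occurred in a promoter of Pcx and in that of G6pc3. The TTACGTCA match in Pck1 began 93 bases before the start, and 0.447% of promoters held these letters. The letters were chosen as in Pck1, so its match was fixed in advance. The unchanged element, TGACGTCA, had 0 matches in Pck1. Such matches are letters in a window, and no binding was measured.

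The coding sequences of the 2 fructose bisphosphatases, in GENCODE M21, were identical at 70.5% of 1015 aligned bases. Their longest shared run was gatgagccttctgagaaggatgc, 23 bases long, shown because reads that fall inside such a run fit both genes. Pck1 and Pck2 were 70.9% identical, with a longest shared run of 17 bases. How the authors' counting treated reads that fit several genes was not given.

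Total counts per library ran from 15513502 to 26588390. Beta cell markers were found in every library, with none of the 10 genes at 0. They summed to between 31045 counts per 1000000 (CPM) in KD replicate 1 and 109905 in KD replicate 4. CPM here is on the library size after TMM scaling, which sets the bulk of genes equal between libraries. Markers of acinar cells, the enzyme-secreting cells around islets, took 35.6%, 24.9% and 15.1% of counts on LFD, 18.9% and 11.3% on HFD, and 60.5%, 44.5%, 56.2% and 20.4% in KD replicates 1 to 4. Summed CPM of 12 lymphocyte markers was 66.6 to 1231 on LFD, 56.4 and 73.3 on HFD, and 6.06 to 26.1 on KD. On plain library totals the median log2 fold change of all genes moved by -0.57 for KD against LFD, by -0.77 for KD against HFD and by 0.21 for HFD against LFD. In such bulk samples, fewer cells of a type and less RNA per cell cannot be told apart. The labels name no batch, and a batch that ran along with the diets cannot be told apart from them.

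Fbp2 was higher on KD than on LFD in every library. Its level was 0.674, 0.403 and 0.657 CPM in LFD replicates 1 to 3, from 11, 9 and 14 counts. It was 1.45 and 0.587 CPM on HFD, from 29 and 14 counts. It was 12.3, 5.52, 5.26 and 1.52 CPM in KD replicates 1 to 4, from 158, 124, 59 and 34 counts. The 4 KD libraries lay above all LFD and HFD libraries, and they spread more widely than any other diet, with replicate 1 highest and replicate 4 close to the higher HFD library. The mean was 0.578 ± 0.152 CPM for the 3 LFD libraries, 1.02 ± 0.611 CPM for the 2 HFD libraries and 6.15 ± 4.48 CPM for the 4 KD libraries (all SD).

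For KD against LFD the log2 fold change of Fbp2 was 3.40 (SE 0.67). Over all genes edgeR called 4.12% in this contrast, 0.981% as higher on KD. Fbp2, 1 of the 6 members, was among them, which the choice of the members fixed, so nothing is read from that count. On plain library totals the difference was 2.59, and the KD and LFD libraries still did not overlap, at 1.78 to 6.65 against 0.500 to 0.823 CPM on those totals.

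**Figure D1:**
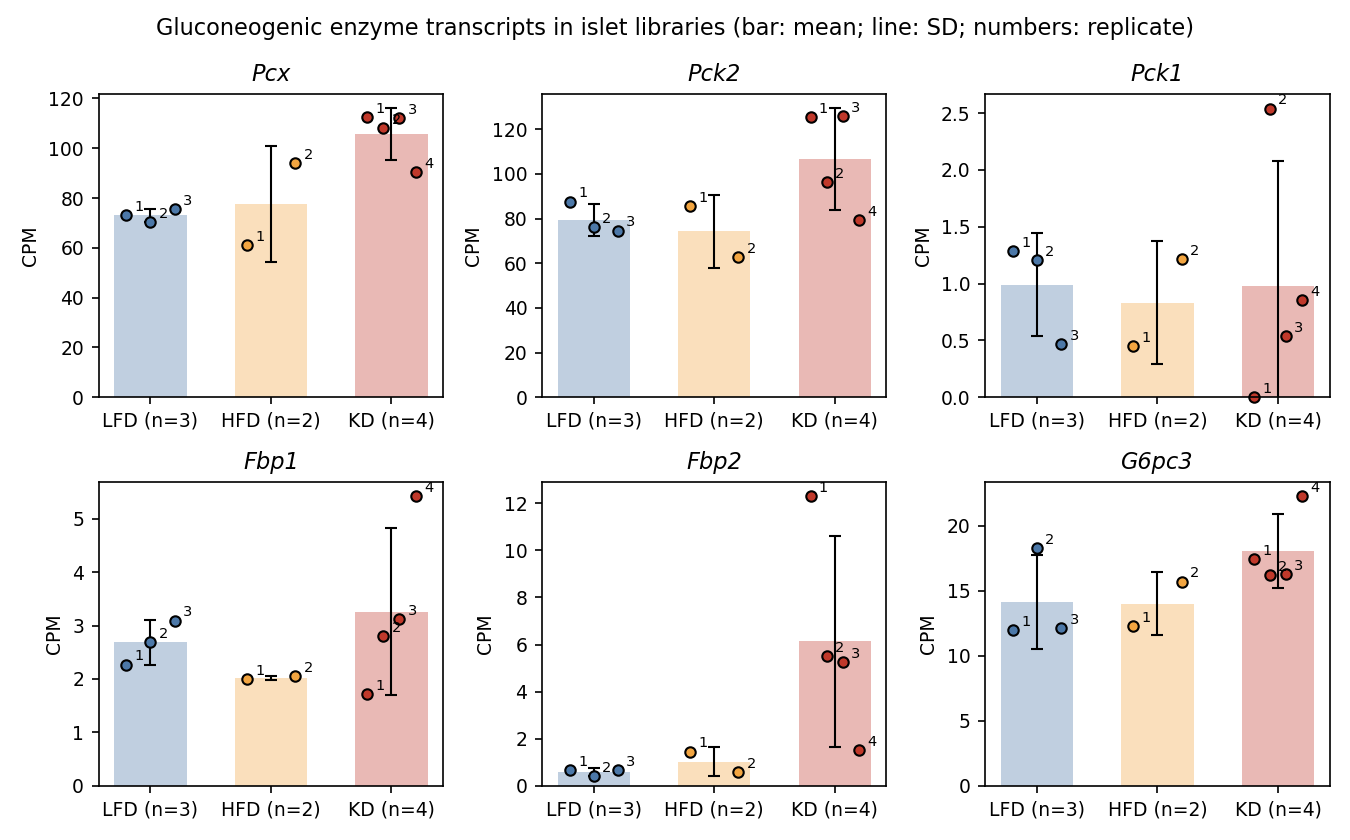
Level of each of the 6 genes in every library, in CPM on TMM-scaled library sizes, with a panel and a linear axis per gene; points are libraries, and the bars and lines give the mean and SD per diet, with the KD line of Pck1 ending at the axis. Fbp2 lay between 0.403 and 1.45 CPM in the LFD and HFD libraries and between 1.52 and 12.3 CPM in the KD libraries.

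The 3 libraries with the most Fbp2 were also the 3 with the most acinar RNA. KD replicates 1, 2 and 3, with acinar shares of 60.5%, 44.5% and 56.2%, held 5.26 to 12.3 CPM of Fbp2, and KD replicate 4, with 20.4%, held 1.52 CPM. At higher shares than that of KD replicate 4, LFD replicate 1 held 0.674 CPM with 35.6% acinar counts, and LFD replicate 2 held 0.403 CPM with 24.9%. With an acinar score as a covariate, the KD against LFD difference of Fbp2 was 1.996 (SE 0.52). With a lymphocyte score it was 2.85 (SE 2.05), and with both scores, an alternative chosen after seeing the data, it was 0.96 (SE 1.27). The lymphocyte score did not overlap between LFD and KD, so fits that use it could hardly separate it from diet.

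Markers of muscle and fat summed to little in any library. The 10 skeletal muscle markers summed to 1.36 to 2.20 CPM on LFD and 1.61 to 2.49 CPM on KD. Myh2 and Myh4, which encode fast muscle myosins, were at 0 in all 9 libraries (Myh4 was named after its values were seen). The 13 adipocyte markers summed to 25.5 to 39.7 CPM on LFD and 29.3 to 41.7 CPM on KD, with Ucp1 at 0 in all libraries. The 10 hepatocyte markers, led by Alb, summed to 127 to 166 CPM on LFD and 31.0 to 115 CPM on KD. The 9 kidney and gut markers, led by Vil1, summed to 34.5 to 59.3 CPM on LFD and 40.2 to 74.0 CPM on KD.

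**Figure D2:**
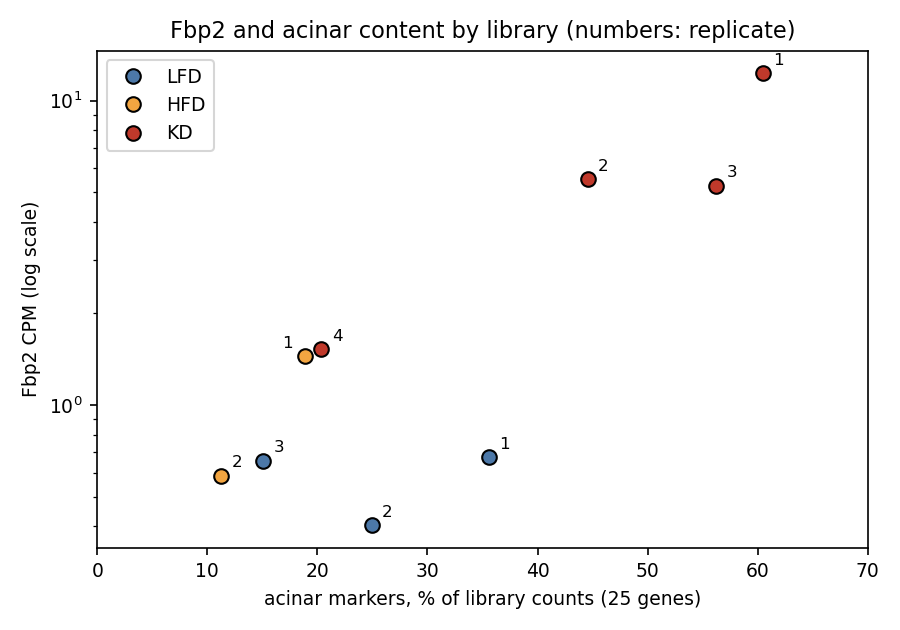
Fbp2 level (CPM on TMM-scaled library sizes, log axis) against the percent of counts from 25 acinar marker genes, 1 point per library, coloured by diet and numbered by replicate. KD replicate 4 had 1.52 CPM at 20.4% acinar counts, and LFD replicate 1 had 0.674 CPM at 35.6%.

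The genes whose pattern over the 9 libraries was nearest to that of Fbp2 were Sypl2, Slc25a34, Sostdc1, Sycn and Cela3a, at root mean square differences of 0.589, 0.605, 0.620, 0.630 and 0.665 in centred log2 CPM. Members, genes without a symbol, gene models, clone names and pseudogenes were left out of this ranking. Sycn (syncollin, of the zymogen granule) and Cela3a (an elastase) belong to the acinar list. Sycn was at 1395 to 4142 CPM on LFD and at 4023 to 25397 CPM on KD, ranges that overlapped. Cela3a was at 6.47 to 16.6 CPM on LFD and at 18.1 to 115.5 CPM on KD, without overlap. Slc25a34, a carrier of the mitochondrial inner membrane, was at 0.0613 to 0.141 CPM on LFD and 0.672 to 1.71 CPM on KD. Sypl2 was at 0.469 to 0.896 CPM on LFD and 1.48 to 7.24 CPM on KD, without overlap. Sostdc1 was at 2.20 to 5.27 CPM on LFD and 4.70 to 30.2 CPM on KD, ranges that overlapped. Fbp1, the adjacent gene, is described next. The other near protein-coding genes on chromosome 13, Gm5141, Platr25, 2010111I01Rik and Fancc, lay below 0, with log2 fold changes of -0.99, -0.48, -0.49 and -0.13 for KD against LFD.

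Fbp1 did not share the pattern of Fbp2. It was at 2.27, 2.69 and 3.10 CPM on LFD, at 2.001 and 2.05 CPM on HFD, and at 1.71, 2.81, 3.12 and 5.42 CPM in KD replicates 1 to 4. The KD libraries overlapped those on LFD, and KD replicate 4, lowest in Fbp2 among them, was highest in Fbp1. The log2 fold change for KD against LFD was 0.29 (SE 0.36), and it was -0.15 on plain library totals.

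The share of Fbp2 in fructose bisphosphatase counts is a ratio that scaling does not touch. Fbp2 was 22.9% (95% Wilson interval 13.3 to 36.5), 13.0% (7.02 to 22.97) and 17.5% (10.7 to 27.3) of Fbp1 plus Fbp2 counts on LFD. On HFD it was 42.0% (31.1 to 53.8) and 22.2% (13.7 to 33.9). In KD replicates 1 to 4 it was 87.8% (82.2 to 91.8), 66.3% (59.3 to 72.7), 62.8% (52.7 to 71.9) and 21.9% (16.1 to 29.1). In 3 KD libraries Fbp2 was the main form, and KD replicate 4 lay within the LFD range. The intervals cover counting error only.

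**Figure D3:**
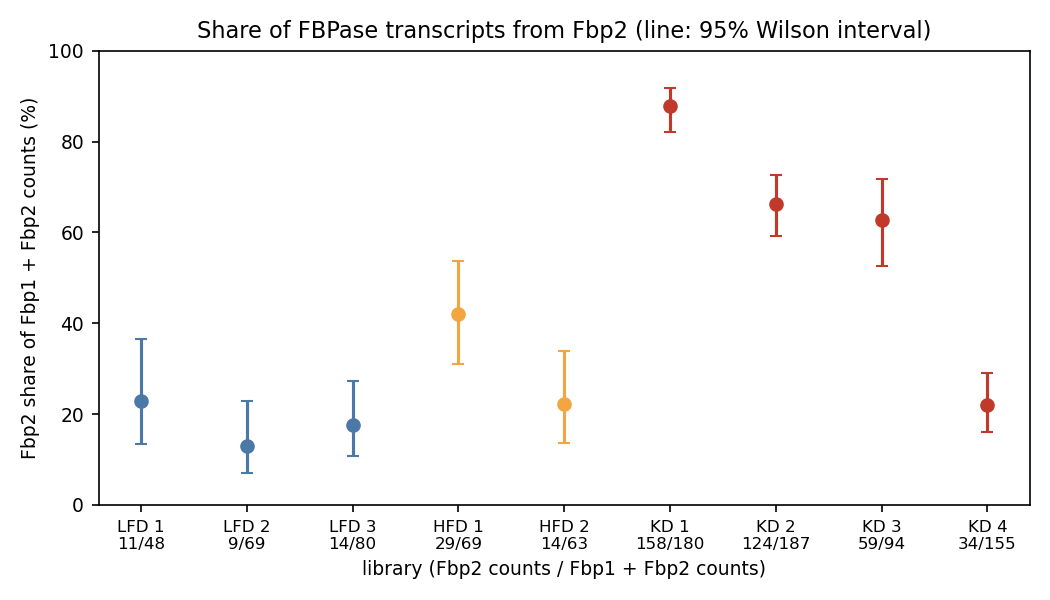
Fbp2 as a percent of Fbp1 plus Fbp2 counts in each library, with 95% Wilson intervals as lines and the counts under each library. KD replicates 1 to 3 lay at 62.8% to 87.8%, and KD replicate 4 at 21.9% was within the LFD values of 13.0% to 22.9%.

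Pck2, the mitochondrial phosphoenolpyruvate carboxykinase, made up 97.4% to 100% of Pck1 plus Pck2 counts in every library. Its level was 87.6, 76.2 and 74.6 CPM on LFD, 85.7 and 62.7 CPM on HFD, and 125, 96.4, 126 and 79.4 CPM in KD replicates 1 to 4. KD replicates 1, 2 and 3 were above all other libraries, and KD replicate 4 fell inside the LFD range. For KD against LFD the log2 fold change was 0.42 (SE 0.18), and it was -0.23 on plain library totals, where the median of all genes was -0.59.

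Pck1, the cytosolic form that dominates liver, was low throughout and undetected in 1 library. It had 21, 27 and 10 counts on LFD, 9 and 29 on HFD, and 0, 57, 6 and 19 in KD replicates 1 to 4. KD replicate 1, with 0 counts, allows a level of up to 0.126 CPM on its plain total, and KD replicate 2 held the highest level of any library, 2.54 CPM. The diets overlapped, with means of 0.989 ± 0.452 CPM on LFD (SD, n = 3) and 0.981 ± 1.10 CPM on KD (SD, n = 4). The log2 fold change was 0.07 (SE 0.86), and -0.38 on plain library totals.

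Pcx, the entry enzyme, had the tightest LFD replicates of the 6 relative to its level. It was at 73.1, 70.3 and 75.5 CPM on LFD, at 61.0 and 93.9 CPM on HFD, and at 112, 108, 112 and 90.4 CPM in KD replicates 1 to 4. All KD libraries were above all LFD libraries, and the higher HFD library lay between KD replicate 4 and the other KD libraries. The log2 fold change for KD against LFD was 0.53 (SE 0.16). On plain library totals it was -0.08 and the libraries overlapped, at 60.8 to 106 on KD against 76.9 to 94.6 on LFD, while the median of all genes was -0.59. Pcx overlaps Lrfn4 on the opposite strand, which had 3054 counts over the 9 libraries, and no source used here states the strand setting of the counting, so reads of the pair may not have been told apart.

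G6pc3, the broadly expressed glucose phosphatase, was at 12.0, 18.3 and 12.2 CPM on LFD, at 12.3 and 15.7 CPM on HFD, and at 17.4, 16.2, 16.3 and 22.3 CPM on KD. LFD replicate 2 lay within the KD range. For KD against LFD the log2 fold change was 0.35 (SE 0.20), and -0.19 on plain library totals. G6pc3 gave 0.73% to 3.30% of glucose phosphatase counts, and G6pc2, the beta cell form, gave 96.7% to 99.3%. G6pc, the liver form, had 13, 7 and 7 counts on LFD, 2 and 23 on HFD, and 0, 7, 2 and 14 in KD replicates 1 to 4, with its zero in the same library as that of Pck1.

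Of the 6 members, 6 had a fold change above 0 for KD against LFD on TMM-scaled library sizes, with a median of 0.39 beside -0.02 for all genes. On plain library totals only Fbp2 was above 0. The KD and LFD libraries did not overlap for 2 of the 6, Fbp2 and Pcx, both higher on KD, beside 19.7% of all genes without overlap, 9.69% higher and 10.1% lower. Fbp2 was chosen for its increase in these libraries, so nothing is read from that count. On plain library totals the Pcx libraries overlapped.

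**Figure D4:**
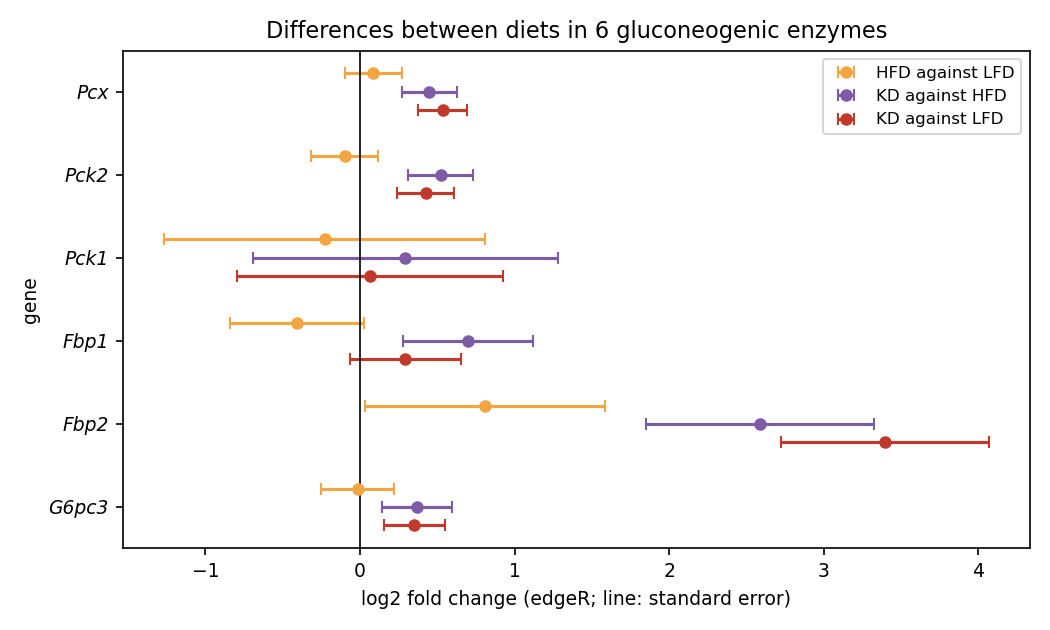
Log2 fold changes of the 6 genes from edgeR on TMM-scaled library sizes for HFD against LFD, KD against HFD and KD against LFD, with lines of 1 standard error. Fbp2 had 0.81, 2.59 and 3.40 in this order, and no other member exceeded 0.70; on plain library totals the KD against LFD values of the other 5 fell below 0.

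HFD, the other diet rich in fat, was compared with LFD in the same model. edgeR called 0 of the 6 members and 0.0% of all genes after Benjamini-Hochberg adjustment. Without adjustment 0 members and 1853 genes, 9.99%, had p below 0.05, and over all genes DESeq2 called 268 and limma-voom 10, none of them members. Fbp2 had a log2 fold change of 0.81 (SE 0.78, edgeR adjusted p = 0.732) and Fbp1 of -0.41 (SE 0.44, adjusted p = 0.756). Both HFD libraries were below all LFD libraries in Fbp1, as in 14.1% of all genes lower without overlap. The other 4 lay between -0.23 for Pck1 (SE 1.04, edgeR adjusted p = 0.953) and 0.09 for Pcx (SE 0.18, adjusted p = 0.889). Their signs turned under some alternatives.

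KD and HFD, 2 diets rich in fat that differ in fat content, were compared directly. This contrast shares its libraries with the others. Fbp2 was chosen for its increase in these same KD libraries, so its p-values here are no independent test. No member passed the threshold in edgeR, which called 0.0% of all genes, and over all genes DESeq2 called 1518 and limma-voom 0. Without adjustment 3 of the 6, Fbp2, Pck2 and Pcx, had p below 0.05, beside 22.7% of all genes. Fbp2 had a log2 fold change of 2.59 (SE 0.74, edgeR adjusted p = 0.124) and was higher in 4 of 4 KD libraries than in either HFD library. Its adjusted p ran from 0.003 to 0.955 over the alternatives, being 0.007 in DESeq2, 0.019 without KD replicate 4 and 0.851 with the acinar score as a covariate, where the difference was 0.42.

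The anaplerotic pair Pcx and Pck2 had similar values in that contrast. Pcx had a log2 fold change of 0.45 (SE 0.18, edgeR adjusted p = 0.174), which was -0.40 on plain library totals. Pck2 had 0.52 (SE 0.21, edgeR adjusted p = 0.176), which was -0.32 on plain library totals and -0.08 with the acinar score as a covariate. Pck2 passed the threshold without KD replicate 4 (0.64, edgeR adjusted p = 0.049). Fbp1 had 0.70 (SE 0.42, edgeR adjusted p = 0.340), G6pc3 0.37 (SE 0.23, adjusted p = 0.353) and Pck1 0.29 (SE 0.99, adjusted p = 0.889). G6pc3 was higher in all KD than in both HFD libraries, as was Fbp2, beside 15.7% of all genes higher and 18.2% lower without overlap. On plain library totals the G6pc3 libraries overlapped and its difference was -0.39.

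Between genes, levels were compared as CPM per kb of the longest transcript. On LFD Pcx (17.6 ± 0.628, SD, n = 3) and Pck2 (17.2 ± 1.53) stood highest and did not differ beyond their spread. G6pc3 followed at 8.99 ± 2.30 and Fbp1 at 1.81 ± 0.2795, each apart from its neighbours by more than the SD. Fbp2 at 0.427 ± 0.112 and Pck1 at 0.362 ± 0.166 were lowest and did not differ beyond their spread. The order on HFD was the same. On KD it was Pcx at 25.5 ± 2.52 (SD, n = 4), Pck2 at 23.1 ± 4.93, G6pc3 at 11.5 ± 1.82, Fbp2 at 4.54 ± 3.31, Fbp1 at 2.21 ± 1.05 and Pck1 at 0.360 ± 0.402 CPM per kb. There Fbp2 stood above Fbp1 by less than its SD, and with the shortest coding transcripts as lengths, some of which are fragments, Fbp1 stayed above Fbp2.

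The rest of the pathway was followed in 7 lists with 79 other genes, of which 78 were tested. For KD against LFD edgeR called 6 of them higher and 1 lower, beside 0.981% of all genes higher and 3.14% lower. The median log2 fold change of the 78 was 0.20, beside -0.02 for all genes. None was called for HFD against LFD, where 11 had an unadjusted p below 0.05, beside 9.99% of all genes, DESeq2 called 1 (Sik1) and limma-voom 0. None was called for KD against HFD, where 28 had an unadjusted p below 0.05, beside 22.7% of all genes, DESeq2 called 16 and limma-voom 0.

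The enzymes that make and remove fructose-2,6-bisphosphate, the inhibitor of fructose bisphosphatase, had 1 edgeR call among 5 genes for KD against LFD, with 1 above and 4 below 0. Pfkfb3, which makes the inhibitor, was at 28.8, 29.3 and 20.1 CPM on LFD, at 17.01 and 12.1 CPM on HFD, and at 17.9, 13.2, 10.8 and 9.45 CPM in KD replicates 1 to 4. All KD and HFD libraries were below all LFD libraries, beside 10.1% (KD) and 14.1% (HFD) of all genes lower than LFD without overlap. From LFD to KD it fell by 1.02 on the log2 scale (SE 0.23, with an adjusted p of 0.0330 in edgeR), and by 1.67 on plain library totals. The call was lost without LFD replicate 1 or 2 or KD replicate 2 or 3. Pfkfb2, the highest of the list at a mean of 11.0 CPM per kb, was not called by edgeR there. With the acinar score as a covariate edgeR called Tigar higher (0.81, edgeR adjusted p = 0.029), named here after its values were seen.

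Among 17 regulators, edgeR called 1 higher in the same contrast, with 13 above and 4 below 0. Sik1 was called lower by DESeq2 (-1.03, DESeq2 adjusted p = 0.012) and by limma-voom (-1.16, limma-voom adjusted p = 0.0085). With the acinar score as a covariate edgeR also called Sik1 lower (-1.39, edgeR adjusted p = 0.015). Creb3l3, a membrane-bound transcription factor known from fasting liver, was at 0.613, 0.403 and 0.469 CPM on LFD, at 1.401 and 1.93 CPM on HFD, and at 16.96, 9.62, 13.8 and 5.69 CPM in KD replicates 1 to 4. As with Fbp2, KD replicate 1 was highest and KD replicate 4 lowest among the KD libraries, and the acinar shares of these 2 were 60.5% and 20.4%. With the acinar score as a covariate the KD against LFD difference of Creb3l3 was 3.86 and stayed called (edgeR adjusted p = 0.0003). The diets did not overlap, beside 9.69% of all genes higher without overlap for KD against LFD. The KD libraries exceeded the LFD libraries by 4.53 on the log2 scale (SE 0.43, with an adjusted p of 0.0016 in edgeR) and by 3.80 on plain library totals, and the call held in 9 of 9 omissions of a library. Against HFD the difference was 2.77 (SE 0.44, with an adjusted p of 0.124 in edgeR, the smallest of all genes in that fit). DESeq2 called Creb3l3 higher there (2.81, DESeq2 adjusted p = 1.8e-06). Atf4, the stress regulator and the list's highest gene at 78.5 CPM per kb, was not called by edgeR in any of the 3 contrasts, although DESeq2 called it for KD against HFD (0.45, DESeq2 adjusted p = 0.026).

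Substrate entry and shuttle genes had 3 of 24 called higher by edgeR, with 17 above and 7 below 0. Got2, named here after its values were seen, was called higher by DESeq2 (0.43), limma-voom (0.42) and edgeR with the acinar score (0.48). DESeq2 also called Slc25a10 higher (1.14), and limma-voom Slc25a12 (0.61). Slc25a1, the mitochondrial citrate carrier, was at 24.998 to 28.1 CPM on LFD and 41.2 to 44.3 CPM on KD, with a log2 fold change of 0.67 (SE 0.11, edgeR adjusted p = 0.0133). Gpd1, which links glycerol phosphate to the pathway, was at 14.0 to 15.9 CPM on LFD and 21.3 to 24.0 CPM on KD, at 0.58 (SE 0.13, edgeR adjusted p = 0.0358). Slc25a11, the oxoglutarate and malate carrier, was at 24.0 to 26.5 CPM on LFD and 33.7 to 36.8 CPM on KD, at 0.47 (SE 0.12, edgeR adjusted p = 0.0465). For none of these 3 edgeR calls did the KD and LFD libraries overlap, beside 9.69% of all genes higher without overlap. They were named for their calls in this contrast, so nothing is read from that. On plain library totals the differences were 0.10, -0.01 and -0.10 and no longer called. The Slc25a1 call was lost without LFD replicate 1 or KD replicate 2, the Gpd1 call without any of LFD replicates 1 to 3 or KD replicates 1 to 3, and the Slc25a11 call without any 1 of the 9 libraries. The Gpd1 call was also lost with the acinar score and under both other filters. The Slc25a11 call was also lost under the other scalings, both other filters, only the groups compared and the replicate block.

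Among 8 partners of pyruvate carboxylase, edgeR called 2 higher, with 6 above and 2 below 0. DESeq2 also called Acacb higher (1.57, DESeq2 adjusted p = 0.0088), named here after its values were seen. Pccb, a subunit of the biotin enzyme propionyl-CoA carboxylase, was at 37.0 to 44.8 CPM on LFD and 57.6 to 68.7 CPM on KD (log2 fold change 0.62, SE 0.12, edgeR adjusted p = 0.0210). Hlcs, which attaches biotin to Pcx and the other carboxylases, was at 17.4 to 20.97 CPM on LFD and 25.04 to 30.03 CPM on KD (0.58, SE 0.13, edgeR adjusted p = 0.0351). Neither Pccb nor Hlcs overlapped between LFD and KD, beside 9.69% of all genes higher without overlap, and both were named for their calls here. On plain library totals the differences were 0.02 and 0.00 and not called. The Pccb call was lost without LFD replicate 1 or KD replicate 2 or 3, and among the omissions the Hlcs call was kept only without KD replicate 4. The Hlcs call was also lost at 5 CPM in 3 libraries and with only the groups compared. With the lymphocyte score as a covariate edgeR called 0 of all genes, and so none of the 7 called above by edgeR. That score ran from 1.10 to 3.79 on LFD and from -2.17 to -1.32 on KD, without overlap. The fit could therefore hardly separate the score from diet, and nothing is read from the lost calls. In that fit Creb3l3 still differed by 3.9999 (SE 1.29), the other 5 that had been called higher by 0.64 to 0.99, and Pfkfb3 by -0.11 (SE 0.61).

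Of 10 glycolytic enzymes that oppose the members, edgeR called 0 for KD against LFD, with 6 above and 4 below 0 and 2 at an unadjusted p below 0.05. DESeq2 called 0, limma-voom 2 (Pfkm, and Hkdc1, named here after its values were seen), and edgeR with the acinar score as a covariate 3 (these and Pkm). The phosphofructokinases, which oppose Fbp1 and Fbp2, had KD against LFD log2 fold changes of 0.24 for Pfkl, 0.36 for Pfkm and -0.41 for Pfkp (edgeR adjusted p = 0.332, 0.111 and 0.281). Pkm, which opposes Pcx and Pck2, had 0.36 (edgeR adjusted p = 0.373). Pfkl, Pfkm and Pkm turned to -0.32, -0.18 and -0.12 on plain library totals. The steps shared by both directions, led by Aldoa, had 0 of 11 tested genes called by edgeR for KD against LFD, with 3 at an unadjusted p below 0.05. DESeq2 also called 0, whereas limma-voom and edgeR with the acinar score each called 2, Eno2 and Pgam1, named here after their values were seen.

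G6pc2 was the highest gene of these lists, at a mean of 681 CPM per kb. It was at 1166 to 1417 CPM on LFD, at 1670 and 1684 CPM on HFD, and at 511, 1127, 832 and 1848 CPM in KD replicates 1 to 4. The KD libraries spanned the whole range, with the highest level in KD replicate 4, where beta cell markers also summed highest. G6pc2 is itself among those markers and part of their sum. KD differed from LFD by -0.28 on the log2 scale (SE 0.35, with an adjusted p of 0.676 in edgeR), and this was 0.15 with the acinar score as a covariate. None of the 3 genes in the glucose phosphatase list was called by edgeR, DESeq2 or limma-voom in that contrast, and none had an unadjusted p below 0.05 in edgeR.

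**Figure D5:**
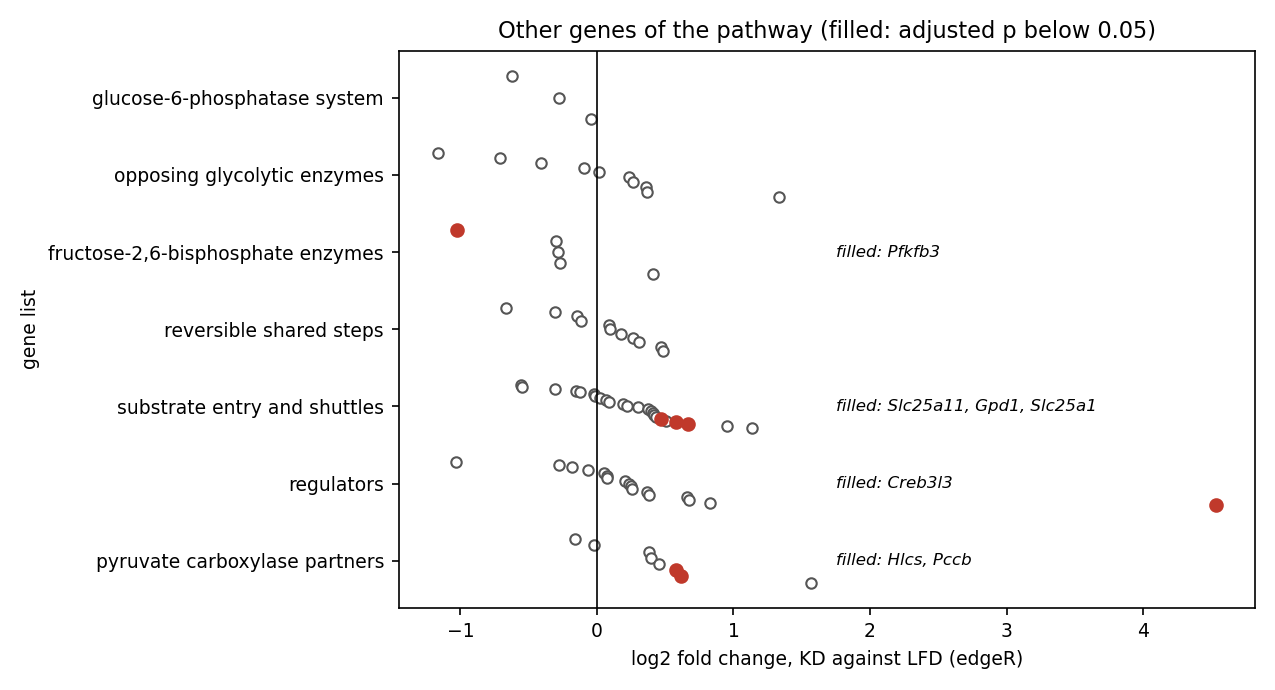
Log2 fold change for KD against LFD (edgeR, TMM scaling) of the 78 other pathway genes tested, 1 row per list and 1 point per gene, filled where the adjusted p was below 0.05. Creb3l3 lay at 4.53 and Pfkfb3 at -1.02, and the other 5 filled points lay between 0.47 and 0.67, of which Gpd1 and Slc25a11 fell below 0 on plain library totals.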

How the data were processed

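The authors deposited raw counts per Ensembl gene for 9 islet libraries. Per the labels, RNA was extracted with Trizol and chloroform, and stranded libraries were made from polyadenylated RNA. The submitters' processing notes name cutadapt 1.16, STAR 2.7.9a, featureCounts 1.6.3, DESeq2 1.40.2 and the build GRCm39. The annotation release and strand setting are not given in the sources used here. Symbols were found for 51948 of 56941 identifiers.

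All libraries entered 1 edgeR 4.0.16 quasi-likelihood model in R 4.3.3 (filterByExpr by diet, TMM), with two-sided tests and Benjamini-Hochberg adjustment over 18548 genes at a threshold of 0.05. Alternatives were DESeq2 1.42.0, limma-voom (limma 3.58.1), other scalings and filters, acinar and lymphocyte scores, a replicate block, only the groups compared, and the omission of each library. Plain library totals and both scores together were added after seeing the data. The procedure was tested on simulated data. Lengths and coding sequences came from GENCODE M21. At 9 to 14 counts per LFD library, Fbp2 is measured with wide counting error.

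The members, lists and tests were chosen with earlier results of these data known. Named were the members, pathway genes past the threshold, the gene highest per kb in each list, isoenzymes opposing a member, the 5 genes nearest to Fbp2, and the highest or lowest of marker lists that are given. The values of 1 gene that this rule names are not reported here.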

Additional observations from a re-analysis of the deposited data

How the results depend on the processing

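Replicate numbers were not shown to pair libraries. Deviations of same-numbered LFD and KD libraries correlated between -0.02 and 0.22, and 2 of 6 libraries correlated best with their own number. With a replicate block edgeR called 395 genes for HFD against LFD, 2320 for KD against HFD and 2003 for KD against LFD, and 2, 23 and 13 of the other pathway genes. Only KD has a replicate 4, so the block gives KD replicate 4 its own term. That library then adds nothing to the diet differences, much as if it were omitted. With the block Fbp2 passed for KD against HFD at 3.03 (edgeR adjusted p = 0.003) and Pck2 at 0.64 (edgeR adjusted p = 0.029). The choice of Fbp2 by its KD libraries means that its p is no independent test.

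The calls of edgeR over all genes, 0, 0 and 764 in the same order of contrasts, were 268, 1518 and 1773 in DESeq2, and 10 and 1867 in limma-voom for HFD against LFD and KD against LFD. Without a filter HFD against LFD had 81 and KD against HFD 316. At least 5 CPM in 3 libraries gave 361 for KD against LFD. The acinar score gave 1307 and the lymphocyte score 0 for KD against LFD, and the latter gave 18 for KD against HFD. Both scores gave 3, 6 and 39. Plain library totals gave 1550 for KD against HFD and 1653 for KD against LFD, of which 10 were higher and 1643 lower, where TMM had 182 higher and 582 lower. Omitting 1 library gave 0 to 194, 0 to 1793 and 151 to 1348 calls. The 194 came without LFD replicate 3, and the 1793 and 1348 without KD replicate 4.

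Of the other pathway genes, edgeR called 0, 0 and 7. DESeq2 called 1, 16 and 11, and limma-voom 14 for KD against LFD. For KD against HFD there were 3 without a filter and 3 on plain library totals. For KD against LFD there were 4 at 5 CPM, 14 with the acinar score, 0 with the lymphocyte score, 0 with both and 4 on plain library totals. Omissions gave 0 to 1, 0 to 18 and 1 to 9.

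Signs turned as follows. For HFD against LFD Pck1 was 1.77 with the lymphocyte score, 1.497 with both scores and 0.0486 on plain library totals, and ran from -1.12 to 0.30 over the omissions. Pck2 was 0.15 with the acinar score and 0.0933 on plain library totals, and ran from -0.34 to 0.11. Pcx was -0.0350 with the lymphocyte score and -0.0170 with both, and ran from -0.26 to 0.36. G6pc3 was 0.0289 in limma-voom, 0.70 with the lymphocyte score, 0.59 with both and 0.20 on plain library totals, and ran from -0.20 to 0.22. For KD against HFD Pck1 was -0.43 on plain library totals and ran from -0.78 to 1.19. Pck2 was -0.0796 with the acinar score, -0.16 with both and -0.32 on plain library totals, where Pcx was -0.40 and G6pc3 -0.39. For KD against LFD Pck1 ran from -1.01 to 0.45 and Fbp1 from -0.08 to 0.50 over the omissions. Of all alternatives, Pck1 lay above 0 in 15 of 20, Fbp1 in 17 of 20 and Pck2 in 19 of 21. Pcx and G6pc3 did so in 20 of 21 each, and Fbp2 in 21 of 21. In that contrast plain library totals gave Gpd1 -0.0111, Slc25a11 -0.0986, Pfkl -0.32, Pfkm -0.18 and Pkm -0.12. G6pc2 was 0.15 with the acinar score, 0.0340 with the lymphocyte score and 0.62 with both, and Pfkp was 0.81 with the lymphocyte score and 0.99 with both. The causes were not tested. Counts of 0 to 57 per library limit what can be said of Pck1.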
